A study of Mus musculus with 12 samples.

Results

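Markers of the endoderm, trophoblast, mesoderm and neural lineages were examined in RNA sequencing of 12 libraries of mouse embryonic stem cells. The set holds 39 gene symbols of textbook lineage markers, chosen by name with earlier results of these data known. They were found by symbol among the 22753 genes of the count table: 16 endoderm, 11 trophoblast, 5 mesoderm and 7 neural genes. They cover 40 rows, because Dab2 has a second gene identifier that lies inside the span of the first and had 0 counts in every library. A filter on low counts left 36 of the 39 for testing among 15179 genes: 15 endoderm, 10 trophoblast, 4 mesoderm and all 7 neural genes. Afp (0 to 10 counts per library), Elf5 (1 to 24) and Mesp1 (0 to 13) did not pass it.

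Clones 4 and 10 came from mice whose Sphk1 is flanked by loxP sites and whose Sphk2 is deleted (Sphk1 fl/fl Sphk2-/-), so no group has an intact Sphk2. Sphk1 and Sphk2 are the sphingosine kinases, which make sphingosine 1-phosphate. All cells were grown in serum with the cytokine LIF, which holds stem cells undifferentiated, and were treated with 6 uM 4-hydroxytamoxifen for 48 hours, so no untreated group is present. Sorting on Cre-GFP then gave a GFP-negative gate, labelled Sphk1 fl/fl Sphk2-/-, and a GFP-positive gate, labelled Sphk1-/- Sphk2-/-. Each clone and gate has 3 replicates, at labelled passages 11 to 20 that differ between the replicates. The GFP-positive library is labelled 1 passage after its same-numbered partner in 5 of the 6 pairs. In those 5 pairs gate and labelled passage cannot be told apart. Each clone is 1 line, and since no label tells if the replicates came from different cultures, the p-values reflect only how these libraries vary, which can be technical.

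Library totals ran from 12968916 to 34258395 counts, the lowest being clone 10 GFP-negative replicate 1. Sphk1, the gene the Cre targets, ranged over 1.78 to 3.02 CPM (a gene's count scaled by its library's total count) in GFP-negative and 0.701 to 2.02 in GFP-positive cells of clone 4, and over 0.694 to 4.30 and 0.889 to 3.01 in clone 10; the gates overlapped in both clones and the change was not called (log2 -0.61, SE 0.25, adjusted p 0.166, edgeR within pairs). Counts over the whole gene do not say whether the floxed part is gone. Sphk2, deleted in every group per the labels, still had 1.19 to 8.34 CPM. Of 10 pluripotent stem cell markers, none was at 0 in any library, and their sum was 5921 to 11225 CPM. The GFP-positive sum was the lower in 5 of 6 pairs. Within pairs their median log2 change was -0.43 in clone 10 (9 of 10 negative) and -0.086 in clone 4 (6 of 10 negative). None was called in either clone.

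When embryonic stem cells leave pluripotency they switch on transcription factors that define one germ layer or extraembryonic tissue. GATA4, GATA6, SOX17 and SOX7 drive primitive endoderm, which then secretes the laminins and type IV collagen of a basement membrane; CDX2, ELF5, EOMES and GATA3 act in trophoblast, whose epithelium is rich in the keratins KRT8 and KRT18. Brachyury (T), MIXL1 and MESP1 mark the primitive streak and early mesoderm, and SOX1 and PAX6 mark neuroectoderm. In serum cultures a minority of stem cells is known to express such genes at any time. Because these are bulk libraries, fewer cells expressing a gene and less RNA per cell cannot be told apart.

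Promoters are shown for 5 genes, because Snai1, Foxa1 and Olig2 passed the test over both clones and Krt8 and Krt18 are close neighbours that rose together in clone 10. Each line is the 250 bases before the RefSeq start (build GRCm38.p6, 5′ to 3′ on the gene's strand), at chr2:167537945-167538194 (+) for Snai1, chr12:57546112-57546361 (-) for Foxa1, chr16:91225300-91225549 (+) for Olig2, chr15:102004343-102004592 (-) for Krt8 and chr15:102027966-102028215 (+) for Krt18. Capitals mark exact matches on either strand to the TATA box TATAAA, the GC box GGGCGG, the CCAAT box, the E-box of Snail factors CAGGTG, the GATA factor motif AGATAA or the FOXA factor motif TGTTTAC.
Snai1: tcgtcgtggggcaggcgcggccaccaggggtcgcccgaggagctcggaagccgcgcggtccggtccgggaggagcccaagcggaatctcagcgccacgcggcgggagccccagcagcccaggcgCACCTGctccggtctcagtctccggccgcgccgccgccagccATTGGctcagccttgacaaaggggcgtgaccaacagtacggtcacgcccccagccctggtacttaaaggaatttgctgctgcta
Foxa1: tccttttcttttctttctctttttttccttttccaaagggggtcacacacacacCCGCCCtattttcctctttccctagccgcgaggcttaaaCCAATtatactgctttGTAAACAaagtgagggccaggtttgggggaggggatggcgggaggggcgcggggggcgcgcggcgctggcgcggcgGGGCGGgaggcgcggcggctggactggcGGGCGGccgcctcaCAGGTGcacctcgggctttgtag
Olig2: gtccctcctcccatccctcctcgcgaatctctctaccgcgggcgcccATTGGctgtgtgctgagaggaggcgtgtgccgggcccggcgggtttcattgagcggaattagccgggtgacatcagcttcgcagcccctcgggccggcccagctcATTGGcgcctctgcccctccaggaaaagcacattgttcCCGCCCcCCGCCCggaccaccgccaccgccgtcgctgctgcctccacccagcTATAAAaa
Krt8: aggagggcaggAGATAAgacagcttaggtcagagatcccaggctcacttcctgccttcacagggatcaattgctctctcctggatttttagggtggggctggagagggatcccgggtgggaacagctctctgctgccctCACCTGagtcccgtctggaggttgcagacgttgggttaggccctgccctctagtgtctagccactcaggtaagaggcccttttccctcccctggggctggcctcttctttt
Krt18: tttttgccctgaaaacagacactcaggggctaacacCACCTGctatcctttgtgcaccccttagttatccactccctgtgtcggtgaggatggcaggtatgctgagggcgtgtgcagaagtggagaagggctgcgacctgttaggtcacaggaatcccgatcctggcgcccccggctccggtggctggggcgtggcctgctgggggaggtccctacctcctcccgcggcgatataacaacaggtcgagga

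The Snail-type E-box was found in 4 of these 5 windows, those of Snai1, Foxa1, Krt8 and Krt18. It was found in 8 of the 30 marker genes with a promoter entry, where any matching promoter of a gene counted. Of 32851 promoters taken singly 17.2% held it, so the units differ. Only the Olig2 window of the 5 held a TATA box, which 12.4% of promoters held. GC boxes lay in the Foxa1 and Olig2 windows (32.7% of promoters), CCAAT in those of Snai1, Foxa1 and Olig2 (33.8%), the FOXA motif in that of Foxa1 (3.17%) and the GATA motif in that of Krt8 (9.99%). The matches are a description of these letters and are not shown to be binding sites. In the GENCODE M21 annotation Foxa1, Olig2, Krt8 and Krt18 reach further upstream than the RefSeq start, so part of these windows may be transcribed.

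Levels per length differed widely between the markers. On a per-length scale (CPM divided by the union exon length in kilobases, RPKM, averaged over 12 libraries), the highest were Lamc1 at 71.2, Krt18 at 53.4, Tubb3 at 31.2, Krt8 at 25.9 and Tfap2c at 19.9. Lamc1 and Lamb1 (17.5 RPKM) encode the gamma and beta chains shared by many laminins, Tubb3 is a beta-tubulin best known from neurons, and Tfap2c encodes AP-2gamma, a factor of trophoblast and germ cells. The lowest were Cubn at 0.031, Elf5 at 0.042 and Afp at 0.046. Cubn encodes the endocytic receptor cubilin and Afp the fetal serum protein alpha-fetoprotein, both products of visceral endoderm. Apart from Tfap2c, the 5 highest encode matrix or cytoskeletal proteins. The heat map of levels by library shows how each gene varied around its own mean.

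**Figure D1:**
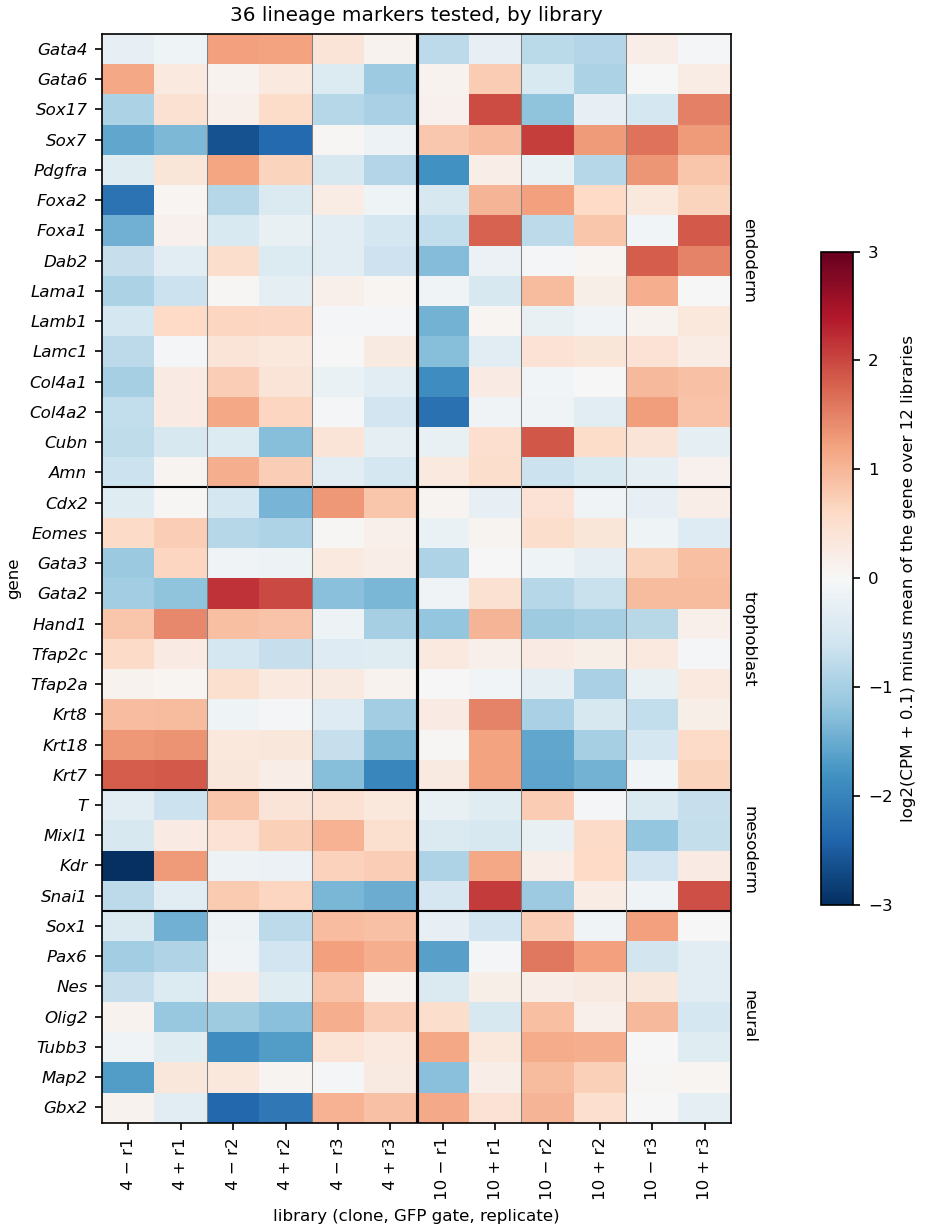
Levels of the 36 tested lineage markers in 12 libraries, as log2(CPM + 0.1) minus the gene's mean over the libraries (colours end at -3 and 3), grouped by lineage (rows) and by clone, gate and replicate (columns). Columns of the same clone and replicate number look alike in both gates, and Snai1 and Foxa1 are highest in replicates 1 and 3 of the GFP-positive cells of clone 10.

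The first question was whether the gates differed in any lineage gene when replicates were treated as unpaired. None of the 36 genes was called (adjusted p under 0.05) by edgeR's quasi-likelihood test in the mean of both clones, against 0.158% of all genes tested. None was called in clone 4, in clone 10 or for the difference between the clones, where 0% of all genes was called. At an unadjusted p under 0.05 there were 3 of the 36 for the mean (6.77% of all genes), 0 in clone 4 (1.38%), 4 in clone 10 (7.45%) and 2 for the difference (0.922%). DESeq2 called 1 gene, Foxa1, for the mean and for clone 10, and limma-voom called none. The libraries of a clone that share a replicate number deviate together, so the same contrasts were also fitted within the 6 pairs. The changes between gates below come from that fit unless another is named. Comparisons of clone 10 with clone 4 within a gate come from the unpaired fit.

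Within pairs, Foxa1 and Snai1 were higher and Olig2 was lower in GFP-positive cells in the mean of both clones, termed over both clones below. These are 3 of 36 genes (2 higher, 1 lower), where 3.36% of all genes were called (2.51% higher, 0.85% lower). Such a mean need not hold in each clone. For Snai1 the GFP-positive to GFP-negative CPM ratios were 1.37, 0.905 and 0.917 in clone 4 and 6.10, 2.49 and 4.15 in clone 10. In clone 10 alone 7 of 36 were called, against 4.22% of all genes: 5 higher (13.9% of the markers; 3.49% of all genes) and 2 lower (5.56%; 0.731%). The 5 were Snai1, Foxa1, Sox17, Krt18 and Krt8, and the 2 were Lama1 and Olig2. Since the markers were chosen with earlier results known, these shares are not an independent test of the set. These calls depend on single pairs: over both clones none of the 36 was called without clone 4 replicate 1 or clone 10 replicate 3, 1 (Snai1) without clone 4 replicate 2, 2 (Foxa1 and Snai1) without clone 4 replicate 3 and 6 without clone 10 replicate 1. In clone 10 the count was 4 or 5 without any other pair and 1, Snai1, without clone 10 replicate 3. From the clone 10 libraries alone Foxa1 and Snai1 were called. In clone 4 none of the 36 was called (0.119% of all genes), and 1 of 36 had an unadjusted p under 0.05 (7.42% of all genes). The median log2 change of the 36 was 0.017 over both clones (0.0031 for all genes), -0.05 in clone 4 (0.0044) and 0.12 in clone 10 (-0.0097), and 18 of the 36 changes over both clones were positive and 18 negative. By lineage the clone 10 median was 0.12 for endoderm, 0.16 for trophoblast, 0.73 for the 4 mesoderm genes and -0.53 for the neural genes. The difference between the clones was itself tested and called for none of the 36 and for 0% of all genes (edgeR within pairs; 6 of 36 at an unadjusted p under 0.05, 7.69% of all genes), whereas DESeq2 within pairs called Snai1 and Krt18.

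**Figure D2:**
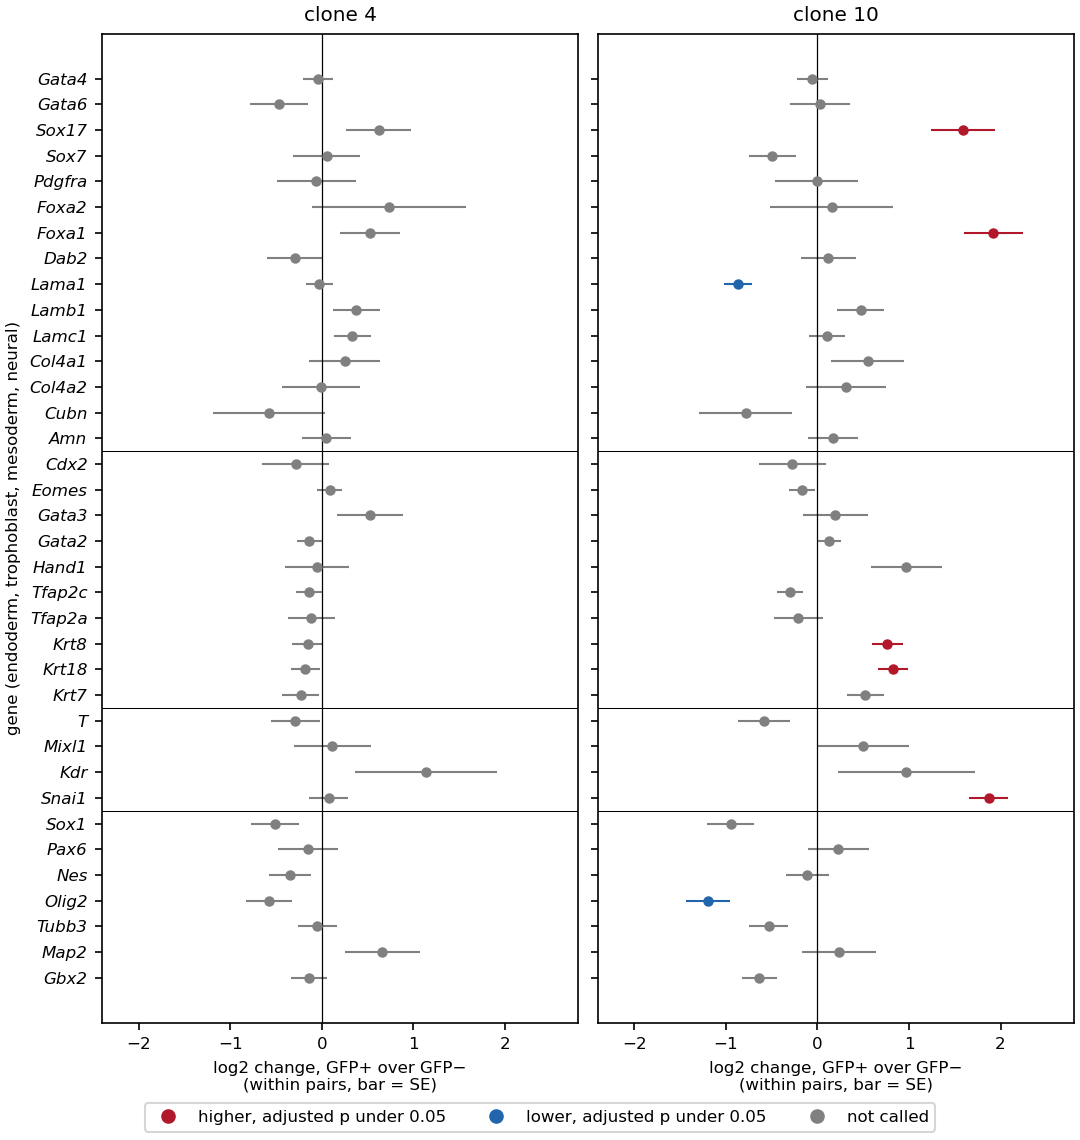
Log2 change of the 36 tested markers between GFP-positive and GFP-negative cells within pairs, with bars of 1 SE, for clone 4 and clone 10, ordered by lineage. The clone 4 values run from -0.58 to 1.14 with none called, and the 7 called genes are coloured in clone 10.

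Among the endoderm genes, Foxa1 showed the largest rise. Foxa1 encodes a pioneer factor of endoderm and liver. In clone 10 its level was 2.08, 2.02 and 3.34 CPM in GFP-negative and 12.4, 6.35 and 13.0 CPM in GFP-positive replicates 1, 2 and 3. All 3 GFP-positive libraries lay above all 3 GFP-negative ones. Clone 4 had 1.23, 2.55 and 2.83 CPM in GFP-negative and 3.89, 3.002 and 2.42 CPM in GFP-positive cells, and the gates overlapped. The log2 change was 1.92 (SE 0.32, adjusted p 0.0151) in clone 10, 0.53 (SE 0.33, adjusted p 0.703) in clone 4 and 1.22 (SE 0.23, adjusted p 0.0290) over both. The difference between clones was 1.40 (SE 0.46, adjusted p 0.577).

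Sox17, which encodes a factor of primitive and definitive endoderm, was read at a low level. Its clone 10 values were 1.85, 0.675 and 1.15 CPM in GFP-negative and 6.91, 1.42 and 5.03 CPM in GFP-positive cells. It rose from the GFP-negative to the GFP-positive library in all 3 pairs, but replicate 2 of the GFP-positive cells lay below replicate 1 of the GFP-negative cells, so the gates overlapped. Its log2 change was 1.59 (SE 0.35, adjusted p 0.0413) in clone 10 and 0.62 (SE 0.36, adjusted p 0.698) in clone 4, and over both clones 1.11 (SE 0.25) just missed the threshold at adjusted p 0.0513.

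Lama1 moved the other way. Lama1 encodes the alpha chain of laminin-111, the laminin of the early embryo. In clone 10 it was 64.2, 133 and 148 CPM in GFP-negative and 49.7, 77.7 and 69.2 CPM in GFP-positive cells, lower in every pair although the ranges overlapped. The log2 change was -0.87 (SE 0.15, adjusted p 0.0163) in clone 10 and -0.03 (SE 0.15, adjusted p 0.963) in clone 4. Its partner chains were not called: Lamb1 had a log2 change of 0.42 (SE 0.18, adjusted p 0.184) and Lamc1 of 0.22 (SE 0.14, adjusted p 0.326) over both clones.

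The other endoderm genes were not called in any contrast between gates. Gata4 ranged over 5.27 to 23.0 CPM, Gata6 over 0.992 to 5.11, and Pdgfra, the receptor that marks primitive endoderm, over 1.08 to 10.4. Sox7, Foxa2 and the endocytic genes Dab2, Cubn and Amn also stayed under the threshold. Rises of Foxa1 and Sox17 were thus seen in clone 10 without a called rise in Gata4, Gata6, Sox7 or the laminin and collagen genes.

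The 2 called trophoblast genes were a pair of keratins that assemble with each other into the filaments of simple epithelia. Krt8 in clone 10 was 52.0, 22.2 and 25.97 CPM in GFP-negative and 123, 31.3 and 49.0 CPM in GFP-positive replicates 1 to 3. Krt18 was 63.5, 21.003 and 42.7 CPM in GFP-negative and 143, 30.9 and 91.5 CPM in GFP-positive cells. Both rose in each pair of clone 10, and for both the gates overlapped. In clone 4 Krt8 was 82.6, 39.6 and 33.4 CPM against 84.7, 42.8 and 21.05, and Krt18 was 153, 76.4 and 38.4 against 159, 77.7 and 24.2, so the replicates differed far more than the gates.

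The log2 change in clone 10 was 0.76 (SE 0.17, adjusted p 0.0439) for Krt8 and 0.82 (SE 0.16, adjusted p 0.0301) for Krt18. In clone 4 the values were -0.15 (SE 0.17, adjusted p 0.789) and -0.18 (SE 0.16, adjusted p 0.760). Without pairing, the clone 10 values of 0.84 for Krt8 and 0.89 for Krt18 became 0.098 and 0.35 without GFP-positive replicate 1, and 1.44 for both without GFP-negative replicate 1. The difference between clones was 0.92 for Krt8 and 1.00 for Krt18, both at adjusted p 0.528. The 2 genes lie 23873 bases apart on chromosome 15 in the authors' coordinates. Krt7, another keratin of simple epithelia, had 0.52 (SE 0.20, adjusted p 0.163) in clone 10 and was not called.

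No trophoblast transcription factor was called. Cdx2, which specifies trophectoderm, ranged over 0.436 to 3.36 CPM. Eomes ranged over 8.42 to 26.9 CPM, Gata3 over 1.82 to 7.59, Hand1 over 1.70 to 10.9 and Tfap2a over 1.93 to 5.52. Tfap2c was 87.6, 83.9 and 87.3 CPM in GFP-negative and 78.3, 80.6 and 69.5 CPM in GFP-positive cells of clone 10; the gates did not overlap, but the change of -0.30 (SE 0.14, adjusted p 0.217) was not called. The keratins rose in clone 10 without a called change in a factor that specifies the lineage. Hand1 also rose in each clone 10 pair, with GFP-positive to GFP-negative CPM ratios of 4.78, 1.07 and 2.04, but its gates overlapped. Gata2 rose in each pair too, Tfap2c fell in each, and Cdx2, Eomes, Gata3 and Tfap2a moved both ways.

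**Figure D3:**
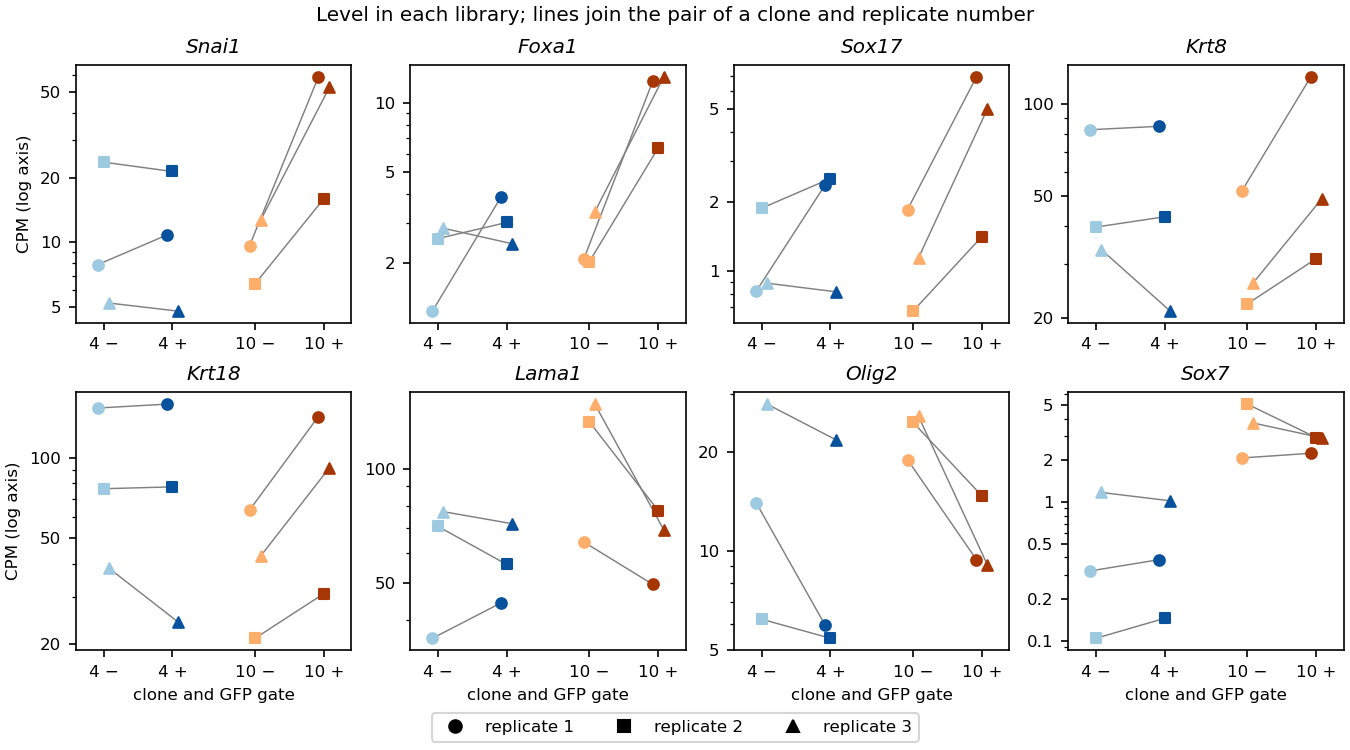
CPM of Sox7 and of the 7 genes called in clone 10 within pairs, on log axes, with each line joining the GFP-negative and GFP-positive libraries of 1 clone and replicate. In clone 10 every line of Snai1, Foxa1, Sox17, Krt8 and Krt18 rises and every line of Lama1 and Olig2 falls, and all clone 10 points of Sox7 lie above those of clone 4.

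Of the mesoderm genes, Snai1 changed and the primitive streak genes were not called. Snai1 encodes a repressor of E-cadherin that acts in epithelial to mesenchymal transitions, including gastrulation. It was 9.64, 6.41 and 12.7 CPM in GFP-negative and 58.8, 16.0 and 52.5 CPM in GFP-positive replicates of clone 10, and all 3 GFP-positive libraries were the higher. Clone 4 gave 7.89, 23.6 and 5.22 CPM in GFP-negative and 10.8, 21.4 and 4.79 CPM in GFP-positive cells. There the level followed the replicate number, with replicate 2 highest in both gates.

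The log2 change of Snai1 was 1.87 (SE 0.21, adjusted p 0.00260) in clone 10, 0.07 (SE 0.21, adjusted p 0.922) in clone 4 and 0.97 (SE 0.15, adjusted p 0.0128) over both. The difference between clones was 1.80 (SE 0.30, adjusted p 0.352). T ranged over 1.04 to 3.13 CPM and had a lower value in the GFP-positive gate in all 6 pairs, with a log2 change of -0.44 (SE 0.19, adjusted p 0.192). Mixl1 ranged over 0.191 to 1.25 CPM and Kdr, the VEGF receptor of vascular progenitors, over 0.0456 to 2.84. Mesp1 was too low to test. Kdr was higher in all GFP-positive than in all GFP-negative libraries of clone 10, though not called.

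Counting genes whose gates did not overlap in clone 10 gave Foxa1, Kdr and Snai1 above and Tfap2c and Olig2 below. These are 3 of 36 above (10.9% of all genes) and 2 of 36 below (3.59%), both near the share of all genes. In clone 4 no marker separated the gates (1.61% of all genes above, 2.04% below).

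Neural genes included the one decrease called over both clones. Olig2, a factor of oligodendrocyte and motor neuron progenitors, was 19.0, 24.7 and 25.7 CPM in GFP-negative and 9.42, 14.7 and 9.07 CPM in GFP-positive replicates of clone 10, without overlap. In clone 4 it was 14.0, 6.199 and 28.0 against 5.96, 5.42 and 21.8 CPM. All 6 pairs thus had less Olig2 in the GFP-positive library, while in clone 4 the gates overlapped.

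The log2 change of Olig2 was -1.19 (SE 0.24, adjusted p 0.0315) in clone 10, -0.58 (SE 0.25, adjusted p 0.666) in clone 4 and -0.89 (SE 0.17, adjusted p 0.0333) over both, with -0.62 (SE 0.35, adjusted p 0.686) for the difference between clones. Sox1, an early neuroectoderm factor, was also lower in all 6 pairs and had -0.73 (SE 0.18, adjusted p 0.0689) over both clones. The remaining neural genes were not called. Tubb3 had -0.29 (SE 0.15, adjusted p 0.234) and Nes, the intermediate filament of neural progenitors, -0.23 (SE 0.16, adjusted p 0.368). T, Sox1 and Olig2 were the genes lower in all 6 pairs, 3 of 36 where 6.79% of all genes were, and none of the 36 was higher in all 6, where 8.29% of all genes were.

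In each pair the GFP-positive library had the lower summed level of the 7 neural genes. In clone 4 the sum went from 98.7 to 85.6, from 65.8 to 54.2 and from 193 to 161 CPM in replicates 1 to 3. In clone 10 it went from 190 to 132, from 218 to 191 and from 143 to 93.0 CPM. By the same count the GFP-positive sum was lower in 3 of 6 pairs for endoderm, 3 for trophoblast and 2 for mesoderm. It was lower in 5 of 6 for pluripotent stem cell markers, 5 for fibroblast markers and 0 for 2-cell-like markers. The 22 other neural genes tested, described below, had a positive median change over both clones (0.12). The neural sums are mostly Tubb3, Nes, Gbx2 and Olig2, and the ranges of the gates overlapped in both clones.

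**Figure D4:**
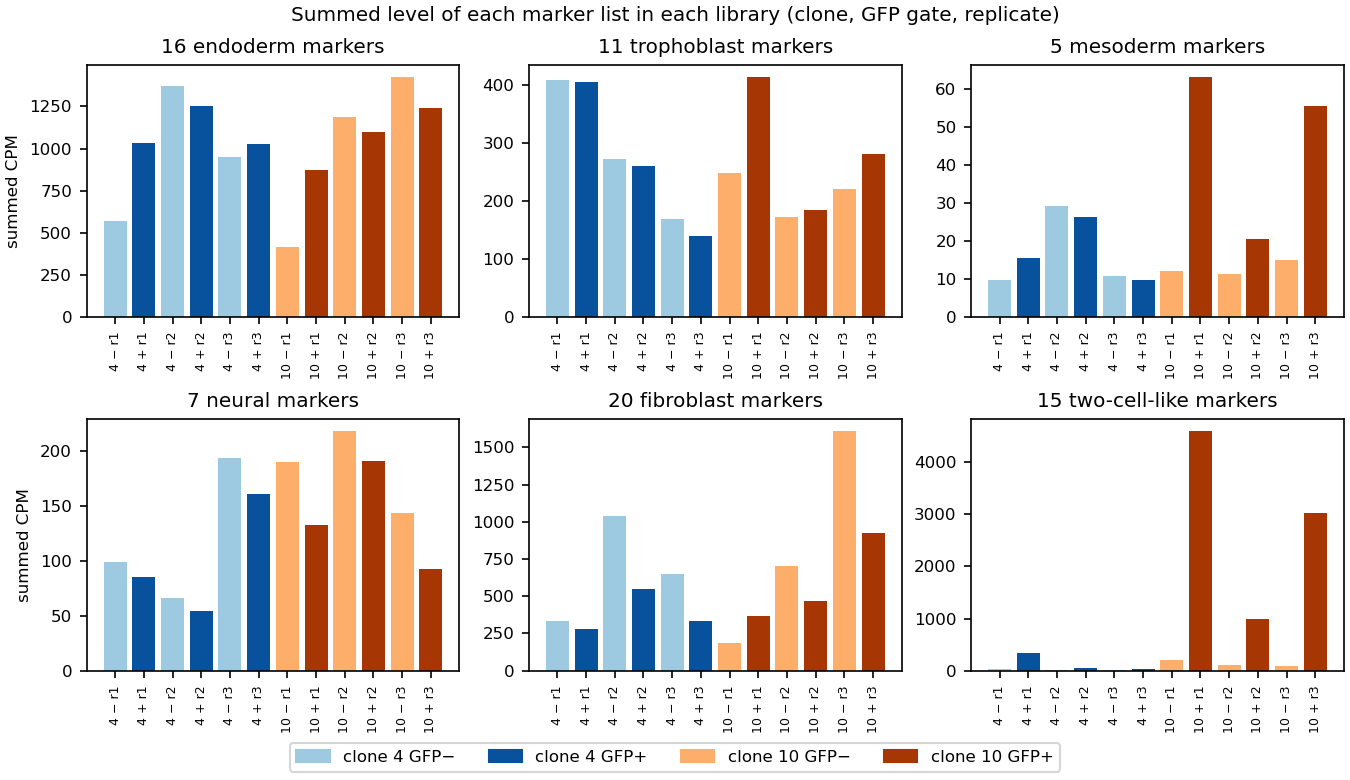
Summed CPM of the markers of each lineage, with the fibroblast and 2-cell-like marker sums, as 1 bar per library from 0, coloured by clone and gate. In all 6 pairs the GFP-positive bar is the lower for the neural and the higher for the 2-cell-like sum, while the endoderm sum is clearly higher in the replicate 1 pairs.

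The authors' deposited table for clone 4 called 8 genes and no lineage marker. For clone 10 the authors' deposited table called 418 genes, and Foxa1 (log2 1.62, SE 0.32, adjusted p 3.9e-05), Snai1 (1.47, SE 0.37, adjusted p 0.0042) and Olig2 (-1.03, SE 0.29, adjusted p 0.016) were among them. Hand1, Elf5 and Mesp1 had no adjusted p there. In clone 4 Sox7, Foxa2, Cubn, Afp, Elf5, Gata2, Mixl1 and Mesp1 had none. The share of all genes called by the authors was not computed, so the 3 markers are not set against a background.

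A larger set of 93 genes of the same lineages, 81 of them tested, was read the same way. Over both clones 3 were higher (3.7%; 2.51% of all genes) and 4 lower (4.94%; 0.85%), with a median log2 change of 0.052 over the 81. P4ha2, a collagen prolyl hydroxylase subunit of the endoderm list, had a log2 change of 1.27 (SE 0.15, adjusted p 0.00304), and the neural factors Neurod1 and Sox3 had 1.16 (SE 0.24, adjusted p 0.0400) and 0.78 (SE 0.17, adjusted p 0.0457). The neighbour and relative of Olig2, Olig1, fell with it at -0.72 (SE 0.13, adjusted p 0.0218). Thbd, encoding thrombomodulin, had -0.97, the trophoblast genes Ets2 and Prl2c2 had -0.38 and -1.95, and no gene of the mesoderm list was called. Prl2c2 belongs to a family of near-identical copies, so its counts are uncertain.

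In clone 10 alone 4 of the 81 were higher (4.94%; 3.49% of all genes) and 2 lower (2.47%; 0.731%), and in clone 4 none was called (0.119%). The clone 10 median was 0.071 for the 20 mesoderm and 0.35 for the 22 neural genes of this set, against 0.73 and -0.53 in the smaller lists, and 13 of the 22 were positive. P4ha2 in clone 10 was 40.0, 26.98 and 55.3 CPM in GFP-negative and 267, 86.8 and 255 CPM in GFP-positive cells. Sox3 was 17.2, 10.1 and 11.8 CPM in GFP-negative and 37.4, 20.2 and 48.2 CPM in GFP-positive cells. Neurod1 and Wnt3 completed the 4, and Olig1 and Ets2 were the 2; Wnt3, a primitive streak ligand, is named after its values were seen. Neural genes thus moved in both directions, with Olig2 and Olig1 lower and Sox3 and Neurod1 higher.

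The markers also varied with the replicate number. Of the 15 endoderm genes, 6 (Gata4, Pdgfra, Dab2, Lamb1, Col4a1 and Col4a2) were highest in the replicate 2 pair of clone 4 and the replicate 3 pair of clone 10, a pattern of 19.2% of all genes. Col4a1 and Col4a2 encode the chains of type IV collagen and their annotated spans share 22 bases head to head, so some reads may be counted to either. The same pattern held for 14 of 18 tested fibroblast markers. Of the 10 trophoblast genes, 5 (Hand1, Tfap2c, Krt8, Krt18 and Krt7) were highest in replicate 1 of both clones (21.8% of all genes), and of the 7 neural genes 5 (Pax6, Nes, Olig2, Tubb3 and Map2) in replicate 3 of clone 4 and replicate 2 of clone 10 (22.5%). Replicates were collected at different labelled passages.

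Endoderm genes differed between gates mainly in the replicate 1 pairs. There the median ratio of GFP-positive to GFP-negative CPM was 1.68 in clone 4, above 1 for 13 of 14 genes, and 2.25 in clone 10, above 1 for 14 of 15. The same ratio over all genes was 1.05 (56.4% of genes above 1) and 1.28 (66% above 1). In the other 4 pairs the endoderm median was 0.846 to 0.959. Col4a1 went from 45.7 to 108 CPM in the replicate 1 pair of clone 4 and from 25.1 to 109 CPM in that of clone 10, while its ratio elsewhere was 0.775 to 1.07. Clone 10 GFP-negative replicate 1, which had the fewest counts, also had the lowest share of mitochondrial counts (0.143%) and the highest share in its 10 most abundant genes (7.39%); the part of this library in the result was not tested.

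Markers of other cell states also differed between the gates. The sum of 20 fibroblast markers ran from 335 to 1036 CPM in GFP-negative and from 279 to 551 in GFP-positive cells of clone 4, and from 189 to 1609 and from 363 to 923 in clone 10. Within pairs 7 of 18 were called lower over both clones (0.85% of all genes), 2 in clone 4 (0.0461%) and none in clone 10 (0.731%). The median log2 change was -1.30 in clone 4 and -0.44 in clone 10. The 2-cell-like state is a rare state of stem cell cultures. In clone 10 the sum of 15 of its markers was 212, 115 and 97.4 CPM in GFP-negative replicates 1 to 3. It was 4600, 999 and 3035 CPM in the GFP-positive replicates. Within pairs all 15 were called higher in clone 10 (3.49% of all genes), in a list chosen with earlier results known. In those GFP-positive libraries 9 of the 36 markers (25%) had the same order, with replicate 1 highest and replicate 2 lowest. That is near the share of all genes with this order, 23.7%. Snai1, Sox17, Krt8 and Krt18 were among the 9 and Foxa1 was not. In clone 4 the 2-cell-like sum went from 22.8, 5.37 and 9.35 to 336, 45.2 and 33.5 CPM. The part of either cell state in the changes of Snai1, Foxa1 or the other markers was not tested.

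Between the clones none of the 36 markers passed edgeR's test with replicates unpaired, the fit that gave the log2 differences below. No marker was called between clone 10 and clone 4 in GFP-negative cells (0.0461% of all genes) or in GFP-positive cells (1.11%), with 3 of 36 at an unadjusted p under 0.05 in each gate (11.9% and 14.3% of all genes). DESeq2 called Sox7 in both gates and Foxa1 in GFP-positive cells, and limma-voom called Foxa1 in GFP-positive cells. Sox7, the primitive endoderm relative of Sox17, was 0.319, 0.104 and 1.17 CPM in GFP-negative and 0.385, 0.145 and 1.02 CPM in GFP-positive cells of clone 4. In clone 10 it was 2.08, 5.09 and 3.72 CPM in GFP-negative and 2.25, 2.92 and 2.91 CPM in GFP-positive cells. All 6 clone 10 libraries therefore lay above all 6 of clone 4, as for 1.38% of all genes. The log2 difference was 2.87 (SE 0.82, adjusted p 0.211) in GFP-negative and 2.32 (SE 0.80, adjusted p 0.189) in GFP-positive cells. Foxa1 in GFP-positive cells was 1.79 (SE 0.41, adjusted p 0.0556) higher in clone 10 on the log2 scale. Of the larger set, Sox3 was called in GFP-positive cells, higher in clone 10 by 2.07 on the log2 scale (edgeR, all libraries).

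Gata2 varied most with 1 pair of libraries. Gata2 encodes a factor of trophoblast giant cells and of blood progenitors. It was 73.0 and 64.5 CPM in the replicate 2 libraries of clone 4, against 6.22 to 7.80 CPM in the other 4 libraries of that clone and 9.01 to 31.6 CPM in clone 10. Both gates of replicate 2 were high, and the gates did not differ by a called amount in either clone.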

How the data were processed

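The authors deposited whole-number read counts per gene, not normalized, per the file headers; STAR 2.3.0e, HTSeq 0.6.0, DESeq2, DESeq and mm10 are named in the submitters' processing notes, and no source used here gives the annotation release or strand setting. The authors' deposited tables per clone hold counts divided by a size factor (a signal) and its mean, log2 fold changes with standard errors, a test statistic (a score), p-values and adjusted p-values, per the file headers.

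Counts were tested with edgeR 4.0.16 (R 4.3.3; TMM, filterByExpr with minimum count 10, robust quasi-likelihood F test, 4 group terms, 12 libraries) and adjusted by Benjamini-Hochberg over 15179 genes, called under 0.05. Because deviations from the group mean of same-numbered libraries of a clone correlated at 0.548 to 0.822 in all 6 pairs (differently numbered libraries of a clone: -0.541 to -0.228), the numbers were taken to pair the samples, and a fit with the clone-and-replicate pair as a block is printed where it changes a call. CPM divide by the library's total count. DESeq2 1.42.0, limma 3.58.1 voom, other filters and leaving out libraries or pairs were the alternatives. RPKM use union exon lengths of GENCODE M21, of which 24 of 39 genes have the authors' span. Promoters are from the RefSeq table, in which 30 symbols were found. The test was checked on simulated counts.

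The members and lists were chosen with earlier results of these data known. Full statistics are given for members called in any comparison, the 2 of highest mean CPM per lineage, the member of smallest p per lineage and up to 3 genes of each larger list by smallest p.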

Additional observations from a re-analysis of the deposited data

Results flagged for a closer look

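For Gata2 the pairs of the 2 clones lay on opposite sides of 1, as for 3.11% of all genes tested; no other of the 36 markers did so. The GFP-positive to GFP-negative CPM ratio was 0.900, 0.884 and 0.915 in clone 4 and 1.48, 1.13 and 1.003 in clone 10, so all 3 pairs of one clone lay below 1 and all 3 of the other above it. Tested within pairs, the difference between the clones was 0.26 on the log2 scale (SE 0.19, edgeR adjusted p 0.730) and was not called. The replicate 3 ratio of clone 10 is so near 1 that its side depends on the scaling.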

How the results depend on the processing

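With replicates unpaired, leaving out any 1 of the 12 libraries left 0 markers called in all 6 comparisons, and clone 4 had 0 under every alternative run. For the mean of both clones, where the unpaired count is 0, DESeq2 called 1 (Foxa1). The replicate block gave 3, and with it DESeq2 gave 6, limma-voom 5 and no filter 5. Of all genes edgeR called 0.158% unpaired and 3.36% with the block, and in clone 10 0% and 4.22%. The shares under the other settings are not given here, so a higher count of markers is not read as more change in the markers. Leaving out 1 pair under the block gave 0 to 6: 0 without clone 4 replicate 1 or clone 10 replicate 3, 1 without clone 4 replicate 2, 2 without clone 4 replicate 3, 6 without clone 10 replicate 1 and 3 without clone 10 replicate 2. For clone 10 DESeq2 called 1; the block gave 7, with DESeq2 9, limma-voom 8, no filter 7, and 2 (Foxa1 and Snai1) from clone 10 libraries alone. Leaving out 1 pair there gave 1 to 5, and without clone 10 replicate 3 Snai1 was the 1 left. For the difference between clones the block with DESeq2 called 2. For clone 10 against clone 4, GFP-negative cells had 1 by DESeq2 (Sox7) and 1 with a replicate block by number (Lama1), and GFP-positive cells had 2 by DESeq2 (Sox7, Foxa1), 1 by limma-voom and 1 with the block by number (both Foxa1); across clones the number is no pairing, since same-numbered libraries correlated at -0.425 to 0.588 and differently numbered ones at -0.448 to 0.683. Of the log2 changes over both clones, that of Lamc1 (0.14 unpaired) changed sign, to -0.024 without clone 10 GFP-negative replicate 1, in a range of -0.02 to 0.27 over the left-out libraries. The cause of these changes was not tested. Depth limits genes such as Foxa2, Cubn and Mixl1, which were under 2 CPM in every library.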
